A study of Mus musculus with 36 samples.

Results

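Polycomb group genes and the enzymes that take ubiquitin off histone H2A were followed as 10 transcripts in the progeny of 2 hair follicle stem cell populations of mouse tail skin. They were chosen by name and not by a cut on their values, but with earlier results of these data known. They were Ring1, Rnf2, Bmi1 and Rybp of Polycomb repressive complex 1 (PRC1), Ezh1, Ezh2, Eed and Suz12 of PRC2, and the H2A deubiquitinases Bap1 and Usp16. All 10 were present in the count tables, which list 20181 genes for Lrig1 and 22587 for Lgr5, and all 10 passed the filter on low counts.

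PRC1 attaches ubiquitin to lysine 119 of histone H2A, a mark of genes that are kept silent, and its catalytic subunit is Ring1 or Rnf2 (Ring1b). PRC2 methylates lysine 27 of histone H3 through Ezh1 or Ezh2, each of which needs Eed and Suz12. Bap1 and Usp16 remove the ubiquitin again. In the epidermis, Polycomb complexes are known for holding back differentiation genes in progenitor cells.

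All mice carried EGFP-ires-CreERT2 at the Lrig1 or the Lgr5 locus together with the Rosa26-fl/STOP/fl-tdTomato reporter, and all were young adults given hydroxytamoxifen once on the tail skin. The drug labels Lrig1+ cells of the junctional zone or Lgr5+ cells of the lower follicle and all their later progeny, so the 0w mice had also been treated. tdTomato+ epidermal cells were sorted at homeostasis (0w), after a full-thickness tail wound (1w, 2w, 4w, 8w), and at 9w, 1 week after a second wound placed over the first. By the study's account the sampled zone took in the wound bed and distal follicles together, so these places cannot be told apart. Each population (Lrig1 GL and Lgr5 GL) had 3 libraries at each of 6 time points, 36 in all, made from small pools of sorted cells. The study counts the replicates of this time course as mice, and the labels do not name the animals. In such bulk samples fewer cells of a type and less RNA per cell cannot be told apart.

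Libraries held 765252 to 3365666 counts in Lrig1 GL and 1297798 to 6960537 in Lgr5 GL, so that a floor of 3 counts stood for 1.01 to 3.39 and 0.389 to 2.92 CPM (counts scaled to library size), counting error only. All 6 keratinocyte markers had counts in all 36 libraries, and none of the 4 T cell markers was listed. The summed fibroblast markers (5 of 6 listed in Lrig1 GL, 6 of 6 in Lgr5 GL) were at 2.52 to 89.6 CPM in Lrig1 GL and 54.9 to 378 CPM in Lgr5 GL. Macrophage, melanocyte and endothelial markers summed to at most 14.3, 48.3 and 19.8 CPM, and the immune marker Ptprc reached 33.3 CPM. The transcript Gm12415 took 12.04% to 52.1% of the counts in Lgr5 GL libraries and at most 0.000212% in Lrig1 GL ones.

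Levels of different genes were compared only per length, as CPM per kb of exon. In the 18 Lrig1 GL libraries the deubiquitinase Usp16 had the highest median, 20.7 CPM per kb. Suz12 (11.2), Ezh2 (11.2), Bmi1 (10.3), Eed (9.24), Rnf2 (8.73), Bap1 (8.26), Ring1 (5.56), Ezh1 (4.19) and Rybp (0.718) followed on the same scale. In the 18 Lgr5 GL libraries the other deubiquitinase, Bap1, led with 12.6 CPM per kb, before Rnf2 (8.17), Usp16 (8.15), Ezh1 (6.34), Bmi1 (6.17), Eed (6.15), Suz12 (5.98), Ring1 (4.19), Ezh2 (2.60) and Rybp (1.03). The library ranges of all neighbours in both orders overlapped. Rybp had 3 counts or fewer in 5 Lrig1 GL libraries and in 1 Lgr5 GL library.

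**Figure D1:**
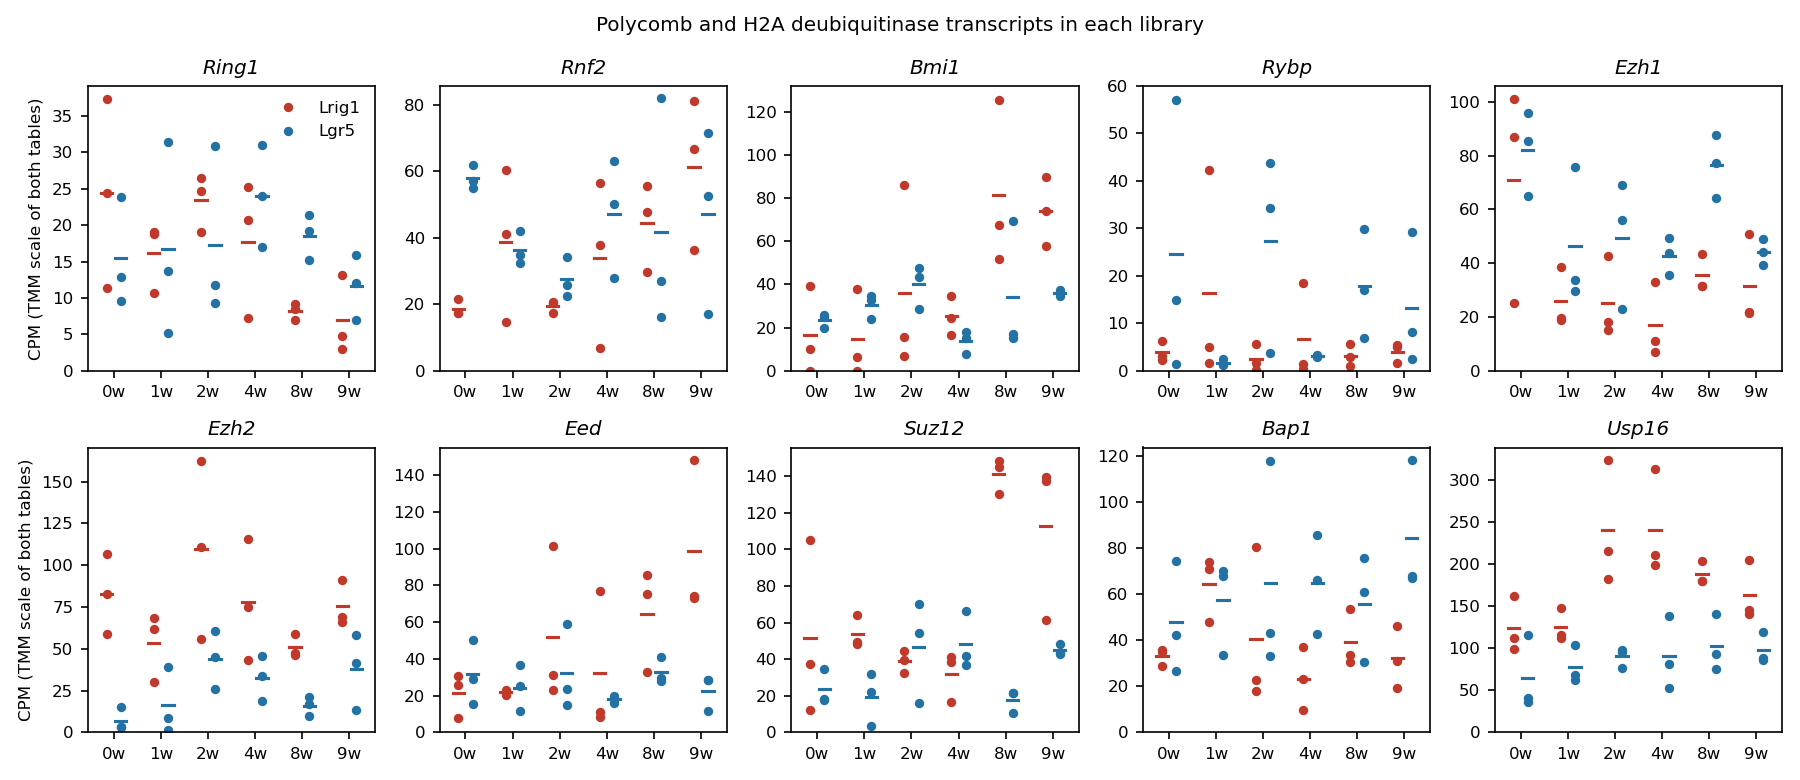
CPM of the 10 transcripts on the scale of both tables (vertical axes, from 0) at each time point (horizontal axes), with a dot for each library, a bar for the mean of 3, Lrig1 GL in red and Lgr5 GL in blue. Ezh2 is higher in all Lrig1 GL libraries than in all Lgr5 GL libraries at 0w, 8w and 9w, and Usp16 is so at each time point but 0w.

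The first comparison was between the populations, in 1 edgeR model of all 12 groups over 16153 genes. At 0w 1 of the 10 transcripts, Ezh2, passed the quasi-likelihood test at a Benjamini-Hochberg adjusted p under 0.05, against 2.90% of all genes. In the mean over the 6 time points 5 of 10 passed, against 33.9% of all genes. Ezh2, Suz12 and Usp16 were higher in Lrig1 GL, and Ezh1 and Bap1 were higher in Lgr5 GL. The median log2 difference of the 10 was 0.01, against -0.08 over all genes.

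Ezh2 is the PRC2 methyltransferase typical of dividing cells. At 0w it was at 107, 82.9 and 58.6 CPM in Lrig1 GL and at 3.04, 14.9 and 3.08 CPM in Lgr5 GL libraries, on the scale of both tables. The groups did not overlap, and the ratio of their means was 11.8. The log2 difference was 3.53 ± 0.75 (SE, n = 3 and 3; edgeR adjusted p = 0.00816). Without replicate a of Lgr5 0w it was 3.20 with an edgeR adjusted p of 0.0521, and the call was lost, while Usp16 was then called.

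At 1w the ranges of Ezh2 were 30.1 to 68.4 CPM in Lrig1 GL and 1.29 to 38.9 CPM in Lgr5 GL libraries. They were 55.7 to 162 and 25.7 to 60.5 CPM at 2w, and 43.5 to 116 and 18.5 to 45.8 CPM at 4w. At these 3 times the populations overlapped. At 8w Ezh2 was at 58.8, 46.5 and 47.2 CPM against 21.3, 16.8 and 9.75 CPM, and at 9w at 68.9, 91.3 and 66.0 CPM against 58.6, 13.2 and 41.6 CPM, with no overlap at either time. The ratio of the means ran from 1.99 at 9w to 3.31 at 1w over these 5 times. In the mean over the 6 time points the log2 difference was 1.75 ± 0.29 (SE, n = 18 and 18; edgeR adjusted p = 2.11e-05).

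Suz12 holds PRC2 together and was 1.02 ± 0.25 higher in Lrig1 GL on the log2 scale over the 6 time points (SE, n = 18 and 18; edgeR adjusted p = 0.00216). The difference was uneven in time. At 8w Suz12 was at 130.3, 148 and 145 CPM in Lrig1 GL and 10.6, 21.4 and 21.3 CPM in Lgr5 GL libraries, a ratio of the means of 7.95. All Lrig1 GL libraries lay above all Lgr5 GL libraries at 1w, 8w and 9w, while at 2w and 4w the ratio was 0.830 and 0.665 and the populations overlapped.

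Ezh1, the methyltransferase typical of resting cells, was lower in Lrig1 GL, with a log2 difference of -0.82 ± 0.22 (SE, n = 18 and 18; edgeR adjusted p = 0.00452). At 8w it was at 43.4, 31.7 and 31.6 CPM in Lrig1 GL and 64.4, 77.4 and 87.8 CPM in Lgr5 GL libraries, and the populations did not overlap at 4w and 8w. At 0w they overlapped, with a ratio of the means of 0.865. After the dependence of each library on transcript GC content was taken out (called GC trend removed), the difference was -0.46 (edgeR adjusted p = 0.113), and the call was lost.

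The promoters of Ezh2, Suz12 and Ezh1 are shown because these PRC2 genes differed between the populations. The sequences are from RefSeq on GRCm38.p6, 5′ to 3′ along the gene, from 250 bases before the transcription start to 20 from it. Capitals mark an 8-base word of the type bound by E2F factors, the regulators of S phase genes. TTTCCCGC, TTTCGCGC, TTTGCCGC and TTTGGCGC were searched on both strands. Of the 10 genes, 9 had an entry and 2 of these held a word, once each, against 2.02% of 32851 promoters of this length. The promoters of Usp16 and Bap1, which also differed between the populations, held none. Those of Ring1, Rnf2, Bmi1 and Eed held none either. Each word holds a CG, and the median GC content of those promoters was 52.6%. It was 64.4% in the Ezh2, 74.1% in the Suz12 and 57.8% in the Ezh1 promoter. The share among promoters of like composition was not measured. The word of Ezh2 (chr6:47595011-47595280, minus strand) covers bases 4 to 11 counted from the RefSeq start. The gene as placed by GENCODE (chr6:47530139-47595341) begins before this window, which lies wholly inside it. That of Suz12 (chr11:79992856-79993125, plus strand) covers bases -219 to -212. Ezh1 (chr11:101226444-101226713, minus strand) has none of these words in this window. A match is a string of letters, and binding was not measured.
Ezh2: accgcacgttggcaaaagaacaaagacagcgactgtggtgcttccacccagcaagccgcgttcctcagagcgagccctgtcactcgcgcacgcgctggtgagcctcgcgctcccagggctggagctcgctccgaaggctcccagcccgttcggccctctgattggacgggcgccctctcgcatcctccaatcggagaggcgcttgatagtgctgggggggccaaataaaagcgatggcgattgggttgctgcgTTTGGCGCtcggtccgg
Suz12: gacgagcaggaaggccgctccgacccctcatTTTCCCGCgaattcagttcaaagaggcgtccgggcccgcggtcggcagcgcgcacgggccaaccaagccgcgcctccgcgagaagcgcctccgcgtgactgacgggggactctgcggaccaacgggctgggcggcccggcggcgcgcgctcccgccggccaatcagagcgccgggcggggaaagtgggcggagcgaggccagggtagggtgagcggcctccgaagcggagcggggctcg
Ezh1: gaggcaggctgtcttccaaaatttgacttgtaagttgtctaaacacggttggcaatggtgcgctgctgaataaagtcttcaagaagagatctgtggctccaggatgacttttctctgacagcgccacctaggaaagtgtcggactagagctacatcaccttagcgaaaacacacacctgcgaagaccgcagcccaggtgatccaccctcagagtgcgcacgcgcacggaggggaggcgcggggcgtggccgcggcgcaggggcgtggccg

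Cell cycle transcripts were measured beside Ezh2 as a list of 30 S and G2/M genes. In the mean over the 6 time points 16 of the 30 were higher in Lrig1 GL and none was lower, against 15.4% and 18.6% of all genes, with a median log2 difference of 0.64 against -0.08 over all genes. At 0w the list summed to 1221 to 3280.1 CPM in Lrig1 GL and 679.6 to 1589 CPM in Lgr5 GL libraries, each on the scale of its own table. At that time 1 of the 30 passed, the mitotic kinase gene Aurkb, with a log2 difference of 2.72 ± 0.68 (SE, n = 3 and 3; edgeR adjusted p = 0.0243). The part of cell division in the Ezh2 difference was not tested.

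Usp16, a ubiquitin protease needed for mitosis, was higher in Lrig1 GL by 1.01 ± 0.15 on the log2 scale (SE, n = 18 and 18; edgeR adjusted p = 7.73e-06). At 0w the populations overlapped, with 98.5, 112 and 162 CPM in Lrig1 GL and 115, 36.3 and 41.2 CPM in Lgr5 GL libraries. At the other 5 time points all Lrig1 GL libraries were the higher ones. The ratio of the means was highest at 2w (2.67), with 182, 215 and 324 CPM against 95.9, 76.6 and 97.9 CPM.

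Bap1, the catalytic subunit of the Polycomb repressive deubiquitinase, was lower in Lrig1 GL, with a log2 difference of -0.73 ± 0.23 (SE, n = 18 and 18; edgeR adjusted p = 0.0126). The populations did not overlap at 4w and 9w. At 9w Bap1 was at 19.4, 31.1 and 46.2 CPM in Lrig1 GL and 67.3, 68.1 and 118 CPM in Lgr5 GL libraries. With the GC trend removed the difference was -0.20 (edgeR adjusted p = 0.552), and the call was lost, whereas Usp16 was then at 0.57 (edgeR adjusted p = 0.0153).

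**Figure D2:**
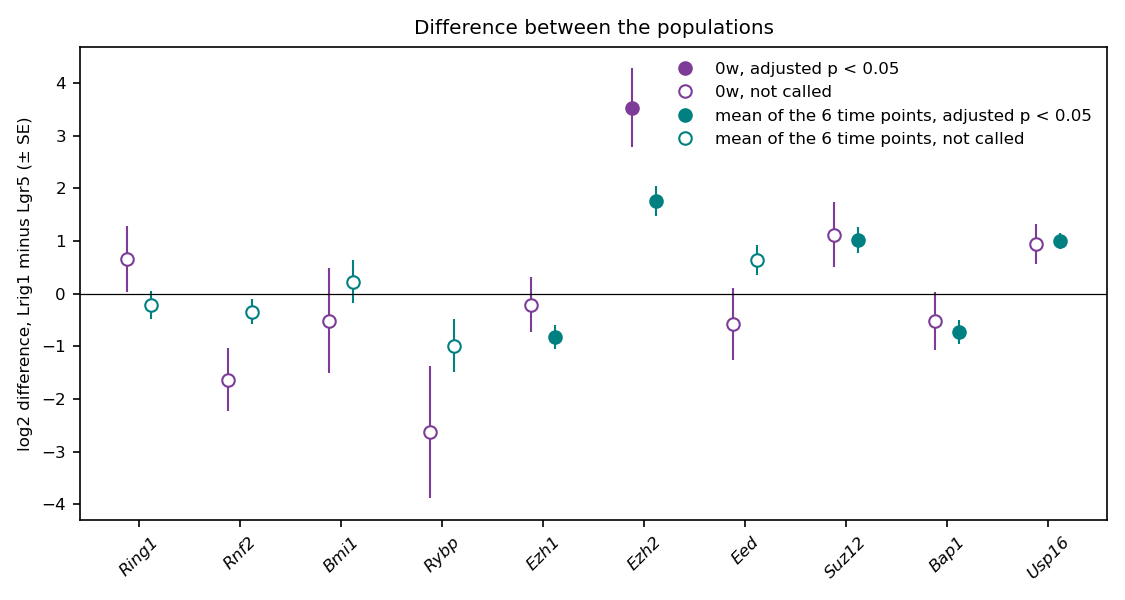
Log2 difference between the populations, Lrig1 minus Lgr5 (vertical axis, bars for the SE), for each gene (horizontal axis) at 0w in purple and in the mean of the 6 time points in green, filled where the adjusted p was under 0.05. Ezh2 at 0w, at 3.53, is the only filled purple dot, and 5 green dots are filled, 3 above and 2 below 0.

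Ring1, Rnf2, Bmi1, Rybp and Eed passed neither test. In the mean over the 6 time points their log2 differences ran from -0.98 ± 0.51 for Rybp to 0.65 ± 0.28 for Eed (edgeR adjusted p = 0.136 and 0.0778). With the GC trend removed, Rnf2 (-0.69) and Eed (0.81) were called. At 0w Rnf2 was at 17.3, 17.3 and 21.6 CPM in Lrig1 GL and 61.8, 57.2 and 55.0 CPM in Lgr5 GL libraries. These did not overlap, but the log2 difference of -1.63 ± 0.60 had an edgeR adjusted p of 0.141. The populations came in separate tables and also differed in mitochondrial share (3.15% to 14.4% in Lrig1 GL, 1.19% to 3.64% in Lgr5 GL), fibroblast transcripts and Gm12415, so population and preparation cannot be told apart.

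The second comparison was of each time after wounding with 0w, within a population. The 0w libraries are the only unwounded ones. Time since labelling and animal age also rise from 0w on, and cannot be told apart from wounding here. None of the 10 transcripts passed edgeR's quasi-likelihood test at the 0.05 adjusted level with a log2 fold change beyond 1 either way. In Lrig1 GL, 0.217%, 0%, 0.0419%, 2.82% and 1.23% of all genes passed at 1w, 2w, 4w, 8w and 9w, and 1.63% across the time course. In Lgr5 GL these shares were 1.29%, 0%, 0.155%, 0% and 0%, and 1.13% across the time course. At an unadjusted p under 0.05 there were 1, 2, 2, 2 and 3 of the 10 in Lrig1 GL and 1, 1, 3, 0 and 2 in Lgr5 GL at these times, and 2 and 1 across the time course. Over all genes the shares at an unadjusted p under 0.05 were 11.0%, 10.5%, 8.37%, 22.9% and 18.5% in Lrig1 GL and 18.6%, 8.79%, 10.7%, 5.94% and 6.42% in Lgr5 GL, and 20.5% and 16.9% across the time course. limma-voom called none. DESeq2 called Suz12 across the time course and Eed at 9w in Lrig1 GL, and Rybp at 1w and across the time course in Lgr5 GL. An exact permutation test of 3 against 3 libraries cannot give a two-sided p below 0.1.

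Across the time course the smallest edgeR adjusted p in Lrig1 GL were those of Suz12 (0.103) and Usp16 (0.136), and in Lgr5 GL that of Rybp (0.198). The median log2 fold change of the 10 transcripts in Lrig1 GL was 0.03, 0.15, 0.24, 0.35 and 0.16 at 1w, 2w, 4w, 8w and 9w, against -0.05, -0.01, -0.03, -0.01 and -0.06 over all genes. In Lgr5 GL it was -0.13, 0.30, -0.00, 0.14 and 0.15, against -0.08, 0.03, -0.00, 0.01 and -0.00 over all genes.

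**Figure D3:**
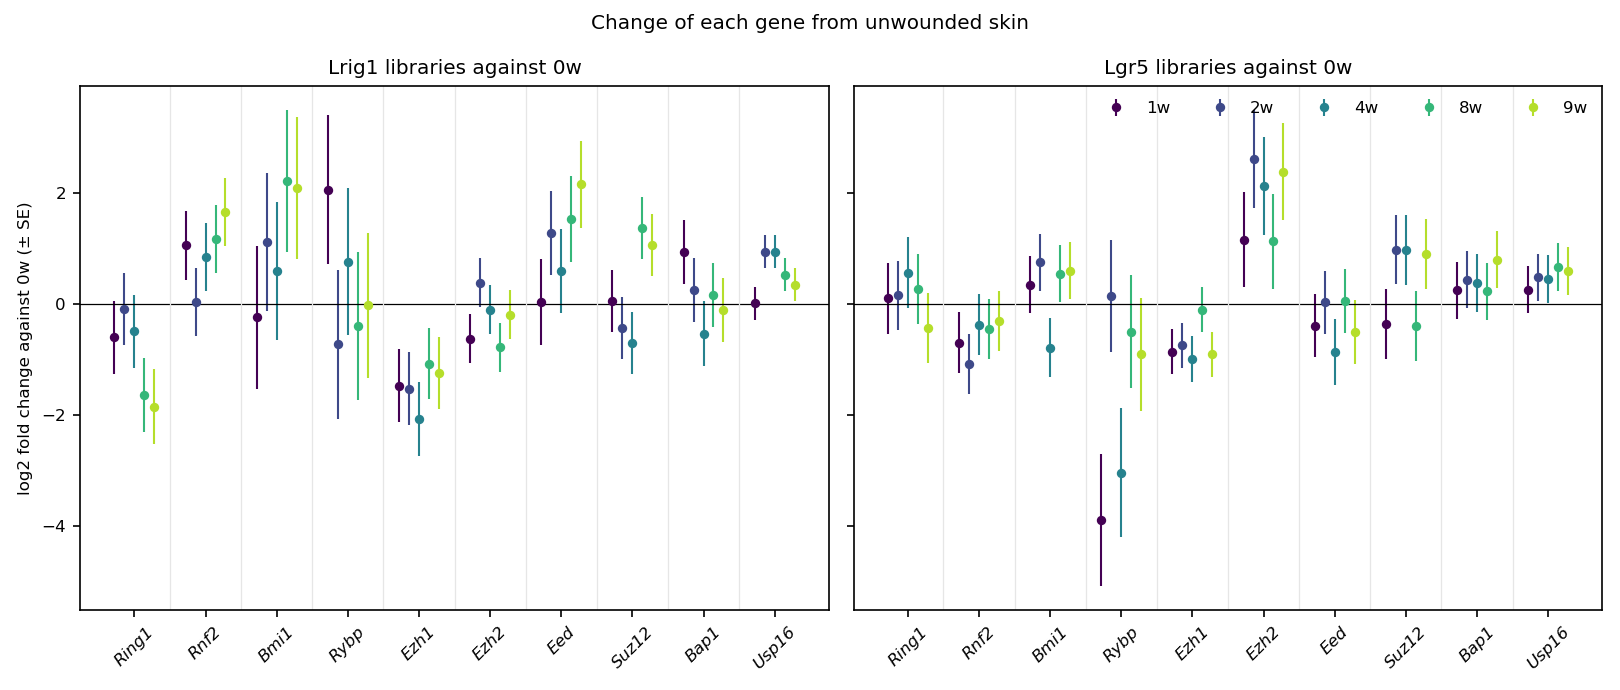
Log2 fold change against 0w (vertical axes, bars for the SE) of each gene (horizontal axes) at the 5 later time points (colours), in Lrig1 GL (left) and Lgr5 GL (right). None of these values passed the test, and the value farthest from 0 is that of Rybp at 1w in Lgr5 GL, -3.88.

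The ubiquitin ligases of PRC1 had opposite signs late in Lrig1 GL, on the CPM scale of that table. Ring1 was at 28.2, 43.0 and 12.8 CPM at 0w, at 7.65, 9.16 and 10.2 CPM at 8w and at 14.6, 5.24 and 3.29 CPM at 9w. All 8w libraries were below all 0w libraries, and 1 of the 9w libraries overlapped them. The log2 fold changes were -1.64 ± 0.67 and -1.85 ± 0.68 (SE, n = 3 and 3; edgeR adjusted p = 0.157 and 0.161).

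Rnf2 was at 20.02, 19.9 and 24.3 CPM at 0w, at 32.4, 59.8 and 52.5 CPM at 8w and at 90.6, 39.7 and 73.0 CPM at 9w. All libraries of both late times were above those of 0w. The log2 fold changes were 1.17 ± 0.62 and 1.66 ± 0.62 (SE, n = 3 and 3; edgeR adjusted p = 0.267 and 0.169). With the GC trend removed they were -0.58 and 0.31, and those of Ring1 were -1.14 and -1.43.

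In Lgr5 GL Rnf2 was at 55.4, 51.7 and 49.3 CPM at 0w, at 36.5, 30.6 and 29.5 CPM at 1w and at 19.8, 23.4 and 30.9 CPM at 2w. Both later groups were below 0w without overlap, with log2 fold changes of -0.69 ± 0.55 and -1.08 ± 0.55 (SE, n = 3 and 3; edgeR adjusted p = 0.513 and 0.607), the latter at -1.76 with the GC trend removed. Ring1 ran from -0.44 to 0.57 on the log2 fold change scale over the 5 times in Lgr5 GL, and its groups overlapped 0w at all of them.

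A ratio of paralogues within a library needs no scaling between libraries, but it keeps any dependence of that library on transcript GC content. Per length, Rnf2 over Ring1 in Lrig1 GL was 0.363 to 1.49 at 0w, 3.33 to 5.13 at 8w and 4.87 to 17.4 at 9w. The 6 late libraries all had a higher ratio than the 3 of 0w. At 1w, 2w and 4w the ratio in Lrig1 GL was 1.09 to 2.52, 0.516 to 0.855 and 0.218 to 4.13, and overlapped 0w each time. In Lgr5 GL the ratio was 2.04 to 4.49 at 0w, 0.838 to 3.35 at 8w and 0.850 to 8.10 at 9w, with overlap. The GC content of the longest transcript is 56.9% in Ring1 and 39.5% in Rnf2. The ratio was not computed with the GC trend removed, and the part of GC content in its late values was not tested.

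Ezh2 over Ezh1, per length, was 1.06 to 2.61 in Lrig1 GL and 0.0358 to 0.256 in Lgr5 GL at 0w. In Lrig1 GL it was 2.90 to 11.9 at 2w and 3.92 to 11.8 at 4w, above all 0w libraries, and 1.51 to 1.66 at 8w, within their range. In Lgr5 GL it was 0.414 to 2.95 at 2w and 0.418 to 1.44 at 4w, likewise above all 0w libraries, and 0.124 to 0.368 at 8w, overlapping them. The ratio was above 1 in all 18 Lrig1 GL libraries and in 5 of 18 Lgr5 GL libraries.

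**Figure D4:**
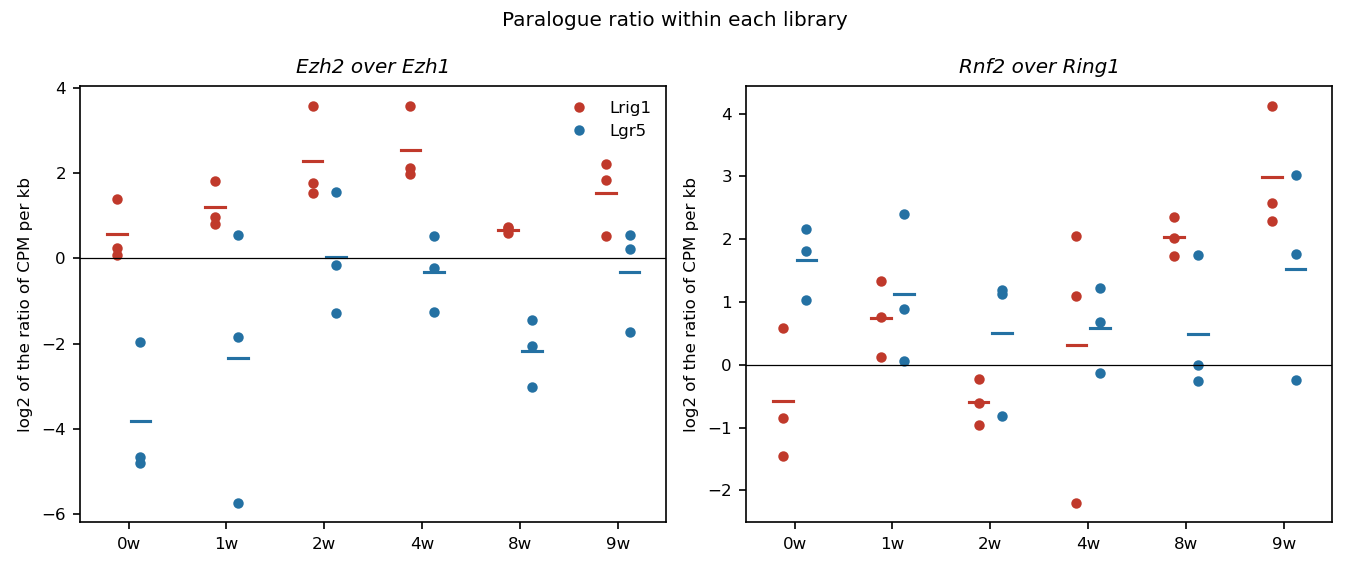
Log2 of the ratio of CPM per kb within each library (vertical axes) over the time points (horizontal axes), for Ezh2 over Ezh1 (left) and Rnf2 over Ring1 (right), with a dot for each library, a bar for the mean of 3, Lrig1 GL in red and Lgr5 GL in blue. The Ezh2 to Ezh1 ratio is above 0 on this scale in all 18 Lrig1 GL libraries, and the Rnf2 to Ring1 ratio of Lrig1 GL is higher in all libraries of 8w and 9w than at 0w. The GC trend was not removed from these ratios.

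Ezh1 in Lrig1 GL was at 117, 99.9 and 28.2 CPM at 0w and at 7.97, 12.7 and 37.2 CPM at 4w. The groups overlapped through the third 0w library, and the log2 fold change was -2.07 ± 0.67 (SE, n = 3 and 3; edgeR adjusted p = 0.424). At the other 4 times it ran from -1.52 to -1.07. In Lgr5 GL Ezh1 was at 76.5, 58.7 and 85.8 CPM at 0w, at 30.1, 38.1 and 43.0 CPM at 4w and at 39.7, 43.8 and 34.6 CPM at 9w. Both of these groups were below 0w without overlap, with log2 fold changes of -0.98 ± 0.41 and -0.90 ± 0.41 (SE, n = 3 and 3; edgeR adjusted p = 0.403 and 0.755).

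Ezh2 in Lgr5 GL was at 2.72, 13.5 and 2.76 CPM at 0w, at 22.7, 54.5 and 40.5 CPM at 2w and at 38.9, 29.3 and 16.1 CPM at 4w. Both later groups were above 0w without overlap, with log2 fold changes of 2.61 ± 0.88 and 2.12 ± 0.88 (SE, n = 3 and 3; edgeR adjusted p = 0.378 and 0.398). At 9w it was at 52.5, 11.8 and 36.5 CPM, overlapping 0w, with 2.39 ± 0.88 (edgeR adjusted p = 0.691). The summed cell cycle list in Lgr5 GL was 679.6 to 1589 CPM at 0w, 1841 to 2563 CPM at 1w, 1016 to 2019.8 CPM at 2w, 591 to 1363 CPM at 4w, 439.9 to 724 CPM at 8w and 855 to 1480.4 CPM at 9w. It was above 0w without overlap at 1w, and overlapped 0w at the other 4 times, 4w and 9w among them. In Lrig1 GL the log2 fold change of Ezh2 ran from -0.78 to 0.39 over the 5 times, and with the GC trend removed it was -1.71 at 8w (edgeR adjusted p = 0.0610).

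Eed, the subunit that reads methylated H3, was at 35.4, 8.93 and 28.8 CPM in Lrig1 GL at 0w, at 93.2, 81.2 and 36.5 CPM at 8w and at 83.1, 162 and 80.2 CPM at 9w. All libraries of both late times were above those of 0w. The log2 fold changes were 1.53 ± 0.77 and 2.16 ± 0.78 (SE, n = 3 and 3; edgeR adjusted p = 0.243 and 0.157), and DESeq2 gave an adjusted p of 0.0456 at 9w. With the GC trend removed they were 1.06 and 1.69.

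Suz12 in Lrig1 GL was at 13.9, 121 and 42.3 CPM at 0w, at 142, 160.0 and 159.7 CPM at 8w and at 68.9, 153 and 151 CPM at 9w. The second 0w library was close to the late ones, and the 9w libraries overlapped 0w. The log2 fold change at 8w was 1.38 ± 0.56 (SE, n = 3 and 3; edgeR adjusted p = 0.151). Without replicate 2 of Lrig1 0w it was 2.45 (edgeR adjusted p = 0.0264) and was called, and with the GC trend removed it was 0.22. In Lgr5 GL Eed and Suz12 ran from -0.86 to 0.98 over the 5 times. Suz12 was there at 16.1, 31.1 and 16.5 CPM at 0w and at 38.4, 38.8 and 42.5 CPM at 9w, above 0w without overlap. Its log2 fold change at 9w was 0.90 ± 0.63 (SE, n = 3 and 3; edgeR adjusted p = 0.923).

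Bmi1, a partner of the ligases in canonical PRC1, was at 45.7, 0 and 11.5 CPM in Lrig1 GL at 0w and at 7.59, 43.0 and 0 CPM at 1w, where the floor of the 2 libraries without a count was 1.22 and 1.38 CPM. It was at 137, 72.7 and 56.8 CPM at 8w and at 64.7, 80.8 and 98.7 CPM at 9w, above all 0w libraries. The log2 fold changes were 2.22 ± 1.28 and 2.09 ± 1.27 (SE, n = 3 and 3; edgeR adjusted p = 0.308 and 0.389), or 0.28 and 0.46 with the GC trend removed. Without replicate 1 of Lrig1 0w the 8w value was 4.02, and limma-voom gave 4.18, neither of which was called. In Lgr5 GL Bmi1 was at 17.9, 22.6 and 23.1 CPM at 0w, below all libraries of 2w and 9w and above all of 4w, and its log2 fold change ran from -0.79 to 0.76.

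Rybp, a subunit of variant PRC1, rested on few reads. In Lrig1 GL its log2 fold change of 2.06 ± 1.35 at 1w came from replicate 3 with 106 counts, against 2 and 5 counts in the other libraries, and without that library it was -0.27. In Lgr5 GL Rybp was at 13.4, 51.7 and 1.38 CPM at 0w, at 1.30, 2.26 and 1.08 CPM at 1w, from 4, 4 and 6 counts, and at 2.92, 2.51 and 2.69 CPM at 4w. Both later groups overlapped 0w, which was itself spread widely. The log2 fold change at 1w was -3.88 ± 1.19 (SE, n = 3 and 3; edgeR adjusted p = 0.0996). Without replicate c of Lgr5 0w it was -4.46 (edgeR adjusted p = 0.0446), and DESeq2 gave an adjusted p of 0.00772 with all libraries. Without replicate b of Lgr5 0w, the highest of that group, it was -2.31 (edgeR adjusted p = 0.343), and with 2 surrogate variables -2.66 (edgeR adjusted p = 0.468).

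Usp16 in Lrig1 GL was at 114, 129.5 and 182 CPM at 0w, at 206, 242 and 369 CPM at 2w and at 224, 354 and 239 CPM at 4w. All libraries of 2w, 4w and 8w were above those of 0w. The log2 fold changes were 0.94 ± 0.30 at 2w and 0.94 ± 0.30 at 4w (SE, n = 3 and 3; edgeR adjusted p = 0.3002 and 0.424). At 8w and 9w they were 0.53 ± 0.30 and 0.35 ± 0.30, and with the GC trend removed they turned to -1.46 and -1.22 (edgeR adjusted p = 0.0498 and 0.126). In Lgr5 GL they ran from 0.26 to 0.67.

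Bap1 in Lrig1 GL was at 40.5, 41.4 and 32.7 CPM at 0w and at 55.0, 80.3 and 85.4 CPM at 1w, with no overlap. The log2 fold change was 0.94 ± 0.58 (SE, n = 3 and 3; edgeR adjusted p = 0.581), and at the later 4 times it ran from -0.53 to 0.26. In Lgr5 GL it ran from 0.23 to 0.80, and all groups overlapped 0w.

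Counted together, 7 of the 10 transcripts in Lrig1 GL had 8w libraries that did not overlap 0w (Rnf2, Bmi1, Eed, Suz12 and Usp16 above, Ring1 and Ezh2 below), against 27.6% of all genes. At 9w there were 3 (Rnf2, Bmi1 and Eed, all above), against 24.3%. At 1w (Bap1), 2w and 4w (Usp16 at both) there was 1, against 13.9%, 11.4% and 10.6%. In Lgr5 GL there were 1, 3, 3, 0 and 3 at 1w, 2w, 4w, 8w and 9w, against 19.8%, 13.2%, 14.4%, 11.2% and 12.3% of all genes. Below 0w were Rnf2 at 1w and 2w, Bmi1 at 4w and Ezh1 at 4w and 9w. Above 0w were Bmi1 at 2w and 9w, Ezh2 at 2w and 4w and Suz12 at 9w. The 8w libraries of Lrig1 GL stood apart from those of 0w in other measures. Their mitochondrial share was 10.9% to 14.4% against 3.15% to 5.38%, their TMM scaling factor 0.821 to 0.939 against 1.03 to 1.09 and their summed keratinocyte markers 11522 to 16947 against 19345 to 23449.9 CPM. At 9w the mitochondrial share was 4.89% to 8.66% and the keratinocyte markers summed to 15881 to 17476 CPM. The part of these in the late values was not tested.

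The late values in Lrig1 GL ran with the base composition of the transcripts over all genes. Over 14252 genes with a known GC content, Spearman's rho between GC content and log2 fold change was -0.50 at 8w and -0.44 at 9w, and over the 10 transcripts it was -0.59 and -0.61. At 1w, 2w and 4w it was -0.11, -0.16 and -0.04 over all genes and -0.31, -0.26 and -0.66 over the 10, so the value of the 10 farthest from 0 was at 4w, where that of all genes was near 0. In Lgr5 GL rho over 17936 genes was 0.06 and -0.03 at 8w and 9w. These values describe genes measured in the same libraries. Usp16 (38.2% GC), Rnf2 (39.5%) and Bmi1 (40.2%) have the lowest GC content of the 10 and Ring1 (56.9%) the highest. With the trend removed, Rnf2 at 8w, Bap1 at 9w and Usp16 at both times changed sign in Lrig1 GL. All other values of the 10 at 8w and 9w kept their signs, though Bmi1 and Suz12 fell to 0.28 and 0.22 at 8w.

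**Figure D5:**
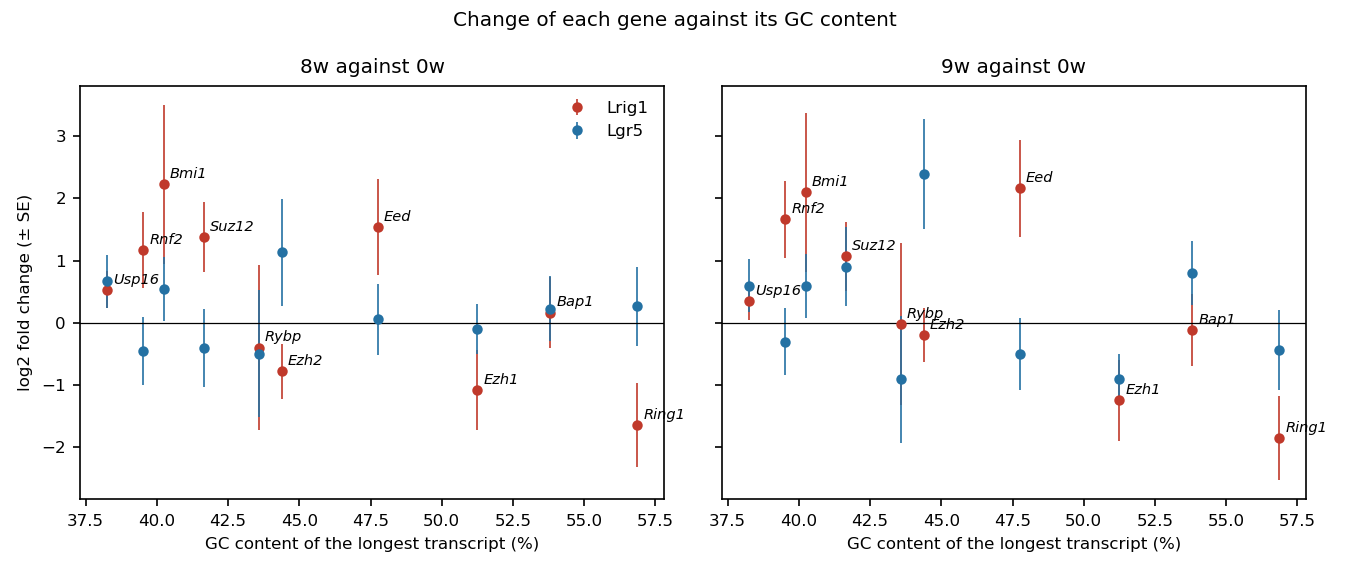
Log2 fold change against 0w (vertical axes, bars for the SE) of the 10 genes against the GC content of the longest transcript in percent (horizontal axes), at 8w (left) and 9w (right), Lrig1 GL in red and Lgr5 GL in blue. Ring1, at 56.9% GC, has the lowest Lrig1 GL value in both panels.

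The third comparison was of the second wound with the first. Between 9w and 1w edgeR called none of the 10 transcripts, against 0% (Lrig1 GL) and 0.266% (Lgr5 GL) of all genes, and between 9w and 8w none, against 0.00699% and 0%. At an unadjusted p under 0.05 there was 1 between 9w and 1w in each population and none between 9w and 8w. The shares over all genes were 8.87% and 16.8% for 9w against 1w and 5.72% and 3.83% for 9w against 8w. DESeq2 and limma-voom called none. In Lrig1 GL the 1 was Eed, at 25.6, 26.0 and 23.5 CPM at 1w and at 83.1, 162 and 80.2 CPM at 9w, with a log2 difference of 2.11 ± 0.79 (SE, n = 3 and 3; edgeR adjusted p = 0.458). In Lgr5 GL it was Rybp, with 2.98 ± 1.16 (edgeR adjusted p = 0.216).

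Differences in change between Lrig1 GL and Lgr5 GL were tested as interactions in the joint model. None of the 10 passed for the change from 0w to 1w, to 8w or to 9w, or from 1w to 9w, against 0.0495%, 1.11%, 0.155% and 0.0557% of all genes. At an unadjusted p under 0.05 there were 2, 2, 3 and 2 of the 10, against 15.0%, 17.6%, 13.0% and 12.7% of all genes. DESeq2 called Rybp from 0w to 1w, and limma-voom called none. The smallest edgeR adjusted p, 0.138, was that of Rybp from 0w to 1w, with a difference of 5.90 ± 1.83 on the log2 scale. This value rests on few reads at 1w. Rybp then had 2, 5 and 106 counts in Lrig1 GL and 4, 4 and 6 counts in Lgr5 GL. From 0w to 9w the differences were 2.69 ± 0.99 for Eed, 2.00 ± 0.83 for Rnf2 and -2.53 ± 0.98 for Ezh2. The 3 tests from 0w share the same 0w libraries.

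Other genes of the pathway were read as lists. Among 25 further PRC1 subunits none was called against 0w in either population. Among 9 accessory subunits of PRC2 the only call was Jarid2, which helps bring PRC2 to its targets. It was higher in Lrig1 GL by 1.87 ± 0.49 at 8w and 2.31 ± 0.49 at 9w on the log2 scale (SE, n = 3 and 3; edgeR adjusted p = 0.0479 and 0.0315). Over all genes 2.82% and 1.23% were called at these times. The calls were lost in 16 of 18 and 6 of 18 fits that left out 1 library, and in 5 and 3 of 10 other alternatives. With 2 surrogate variables the log2 differences were 1.07 and 1.73 (edgeR adjusted p = 0.693 and 0.253), and with the GC trend removed the edgeR adjusted p were 0.0778 and 0.0554.

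Among 10 partners of Bap1, Kdm1b was lower in Lgr5 GL at 1w, with a log2 fold change of -1.92 ± 0.38 (SE, n = 3 and 3; edgeR adjusted p = 0.0270). None of 6 other H2A deubiquitinases (5 tested), 2 H3K27 demethylases and 2 genes of the Ink4 locus was called against 0w. Of 39 Hox genes, classical targets of Polycomb, 22 were tested in Lrig1 GL with no call and 28 in Lgr5 GL with 1, Hoxd10, lower at 1w with -1.79 ± 0.34 (edgeR adjusted p = 0.0205). In the cell cycle list Cdc20 was lower in Lrig1 GL at 8w, with -1.86 ± 0.40, and Ube2c was higher in Lgr5 GL at 1w, with 2.91 ± 0.65 (edgeR adjusted p = 0.0251 and 0.0367). Ube2c and Aurkb were also called across the time course in Lgr5 GL. Of the keratinocyte markers, Krt15 was lower in Lrig1 GL at 1w and 9w and in Lgr5 GL at 1w and 4w, and Krt14 was higher in Lgr5 GL at 1w. The shares of all genes called, against which to read these, were 0.217%, 2.82% and 1.23% in Lrig1 GL at 1w, 8w and 9w. For Lgr5 GL they were 1.29% at 1w, 0.155% at 4w and 1.13% across the time course.

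Between the populations at 0w 3 of 25 PRC1 subunits passed, against 2.90% of all genes. Pcgf5 was higher in Lrig1 GL, with a log2 difference of 4.30 ± 0.89, and Phc1 and Scmh1 were lower, with -6.60 ± 1.70 and -2.84 ± 0.80 (SE, n = 3 and 3; edgeR adjusted p = 0.00633, 0.0307 and 0.0487). None of 9 PRC2 accessory subunits passed at 0w, while the H3K27 demethylase gene Kdm6b (-1.09 ± 0.29) and the Hox genes Hoxd8 (-1.95 ± 0.43) and Hoxd10 (-1.62 ± 0.43) were lower in Lrig1 GL.

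In the mean over the 6 time points 33.9% of all genes passed, which is the share to read the following counts against. Of 25 PRC1 subunits 7 passed, a smaller share, with Pcgf5 (1.83 ± 0.33) and Pcgf6 (0.92 ± 0.28) higher and Cbx6 (-2.80 ± 0.49), Phc1 (-2.16 ± 0.50), Cbx2, Phc2 and Scmh1 lower in Lrig1 GL. Of 9 PRC2 accessory subunits 6 passed, with Lcor, Mtf2 (1.26 ± 0.21), Aebp2, Jarid2 (0.71 ± 0.20) and Rbbp7 higher and Phf19 (-3.88 ± 0.72) lower. Among the 9 tested partners of Bap1, Asxl2 (1.12 ± 0.25) and Ogt (0.92 ± 0.22) were higher, as was 1 of 5 other deubiquitinases, Brcc3 (0.97 ± 0.23). Of 24 Hox genes tested, 1 (Hoxa9) was higher and 6 (Hoxb6, Hoxc13 and Hoxd8 to Hoxd11) were lower, as were Kdm6b (-1.42 ± 0.12) and Cdkn2a (-2.93 ± 0.71) of the Ink4 locus. The list medians were -0.16 for PRC1, 0.45 for the PRC2 accessory subunits, 0.16 for the Bap1 partners and -0.19 for the Hox genes, against -0.08 over all genes.

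The transcripts most like the 4 catalytic members over the 36 libraries were found by Pearson's r of log2 CPM, centred within each population, among 11871 genes. For Ezh2 they were Wwc2 (r = 0.72), Pnpla7 (r = 0.61) and Ovol1 (r = 0.60), and for Ezh1 Mogs (r = 0.67), Ppt2 (r = 0.66) and Gdpd1 (r = 0.63). For Ring1 they were Rab43 (r = 0.61), Tmc6 (r = 0.60) and Mpdu1 (r = 0.60), and for Rnf2 Ssr3 (r = 0.65), Ext1 (r = 0.65) and Atxn1 (r = 0.64). Among the 10 transcripts themselves the highest r was 0.59, between Bmi1 and Eed, and the lowest -0.47, between Ring1 and Eed. These are descriptions over libraries that share their preparation.

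On GRCm38 the protein-coding genes lie at Ring1 (chr17:34020792-34024680, minus strand), Rnf2 (chr1:151458004-151500955, minus strand), Bmi1 (chr2:18677018-18686629, plus strand), Rybp (chr6:100228565-100287485, minus strand), Ezh1 (chr11:101191115-101226463, minus strand), Ezh2 (chr6:47530139-47595341, minus strand), Eed (chr7:89954654-89980983, minus strand), Suz12 (chr11:79993106-80034123, plus strand), Bap1 (chr14:31251450-31259944, plus strand) and Usp16 (chr16:87454703-87483517, plus strand), by GENCODE. Exons of 5 of them overlap a gene on the other strand, Rnf2 with Trmt1l, Ezh2 with Gm26625, Eed with E230029C05Rik, Suz12 with Gm26563 and Usp16 with Cct8. The options given for the counting (exons, summed by gene name) set no strand, and Smart-seq2 libraries do not mark it, so reads from the shared stretches cannot be told apart.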

How the data were processed

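The RNA-seq libraries of sorted tdTomato+ cells were trimmed with Trim Galore 0.5.0, aligned with HiSat2 to GRCm38 and counted with featureCounts over exons, summed by gene name, by the authors. The deposited values are raw counts in 1 table per population, with no strand option among those given for the counting. Of the 36 libraries, 15 carry a replicate number that matches the labels. The other 21 are called a, b and c here, since the column numbers of their time points are not the labelled replicate numbers. p-values measure the spread between these libraries.

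Counts were analysed with edgeR 4.0.16 in R 4.3.3 (filterByExpr with a minimum count of 10, TMM scaling, quasi-likelihood test, prior count 0.125, Benjamini-Hochberg adjustment over all genes tested), each population in its own fit and both in a joint fit of shared genes. Calls against 0w and across the time course needed a log2 fold change beyond 1 either way besides an adjusted p under 0.05, and other calls the adjusted p alone. CPM are TMM-scaled. The 10 members and the gene lists were chosen with earlier results of these data known. All 10 members are named, as are list genes that were called and, for the 4 catalytic members, the 3 most similar genes with a mean of at least 10 counts, skipping symbols starting with Gm or ending with Rik. Alternatives were an edgeR likelihood ratio test, DESeq2 1.42.0 (as test and for size factors), limma-voom (limma 3.58.1) with quality weights, no filter, a robust fit, 2 surrogate variables (sva 3.50.0), a GC trend removed (GC known for 99.6% and 99.5% of genes), removal of Gm12415, a prior count of 2, a replicate block and leaving out each library. The scripts were tested on simulated data. GC contents, lengths and positions are from GENCODE, promoters from RefSeq.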

Additional observations from a re-analysis of the deposited data

How the results depend on the processing

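Within the populations 0 of the 10 members were called, and most alternatives left this at 0. It became 1 in Lrig1 GL at 8w with the GC trend removed (Usp16), at 9w with DESeq2 (Eed), and across the time course with the edgeR likelihood ratio test and DESeq2 (Suz12 in both) and with the GC trend removed (Usp16). It became 1 in Lgr5 GL at 1w and across the time course with the likelihood ratio test and DESeq2 (Rybp), and likewise for the difference in change from 0w to 1w between the populations. Leaving out each library in turn gave 0 to 1 in Lrig1 GL at 8w and across the time course (1, Suz12, without replicate 2 of Lrig1 0w) and 0 to 1 in Lgr5 GL at 1w (1, Rybp, without replicate c of Lgr5 0w). Between the populations it gave 1 at 0w throughout, which was Usp16 in place of Ezh2 without replicate a of Lgr5 0w, and 5 to 7 in the mean over the time points, with Rybp or Eed added. Signs turned for Rybp at 1w in Lrig1 GL without replicate 3 of that group (-0.27, and up to 2.62 with another library left out), and with the GC trend removed for Rnf2 at 8w (-0.58), for Bap1 at 9w (0.16) and for Usp16 at 8w (-1.46) and 9w (-1.22) in Lrig1 GL. The edgeR adjusted p of Usp16 at 8w ran from 0.0498 to 0.969 over the alternatives that kept all libraries. Of 50 log2 fold changes against 0w in Lrig1 GL, the GC trend turned 11, the 2 surrogate variables 9, limma-voom 6 and the replicate block 1. Of 50 in Lgr5 GL they turned 5, 4, 5 and 4. Late signs in Lrig1 GL also turned with the 2 surrogate variables (Rybp at 8w and 9w, Bap1 at 9w) and limma-voom (Rybp at 9w). Late turns in Lgr5 GL were at 8w, for Eed (GC trend, replicate block), Rybp (replicate block) and Ezh1 (limma-voom). Causes were not tested. The alternatives for single members between the populations, for Jarid2 and for Rnf2 and Usp16 at late times were followed after seeing the data.

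With the replicate block the count stayed at 0 in each comparison within a population, was 1 at 0w between the populations (Ezh2, 3.30) and 6 in the mean over the time points (Rybp added). Same-numbered libraries did not deviate together. Their mean r was -0.00471 over 33 pairs in Lrig1 GL and 0.00156 over 32 pairs in Lgr5 GL, with 1 pair over 0.1 in each. Such values cannot exclude that same-numbered libraries share an animal or a batch. Few reads limit Rybp, with 1 to 106 counts in Lrig1 GL.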
